A study of Mus musculus with 27 samples.

Results

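B cell precursor genes were followed through all 9 groups of a mouse RNA-seq series, with the marrow-bearing skull at the centre. The members are 10 genes taken by symbol from a table of 37095 genes: Vpreb1, Vpreb3, Igll1, Rag1, Rag2, Dntt, Ebf1, Pax5, Cd79a and Bach2. Each matched 1 row of counts. RNA came from skull, meninges and brain. Each tissue has 3 libraries labelled as untreated (control), 3 taken 0.5 h and 3 taken 24 h after the interparietal bone, at the back of the skull roof, was lit with UVB (311 nm, 2 mW). Skull here is the skullcap after a PBS wash and after the meninges were scraped off. Bone, marrow and any blood left behind were therefore read together. The sources used here do not give the strain, age or sex of the mice, how controls were handled, or whether replicates are separate animals. P-values therefore measure only the spread between these libraries. The series title names cranial light, border immunity and stroke, and no library here carries a stroke label.

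B cells are built in the marrow in an order that these genes mark. A progenitor switches on the transcription factors Ebf1 and Pax5, and the Rag1 and Rag2 proteins then cut the immunoglobulin heavy chain gene so that its segments can be rejoined, while Dntt (terminal transferase) adds bases at the joins. A rejoined heavy chain is tested at the cell surface with a stand-in light chain made of Vpreb1 and Igll1. Cd79a passes the signal of that pre-B receptor, and later of the mature B cell receptor, into the cell. The recombinase is then used again on the light chain genes. Vpreb3 is a VpreB-like protein of B lineage cells, and Bach2 is a transcriptional repressor of B and T lymphocytes. Rag1, Rag2 and Dntt also act in developing T cells, Ebf1 is also made by stromal, fat-lineage and mural cells, and Bach2 also by neurons.

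On GRCm38 (mm10), GENCODE M21 places Vpreb1 at chr16:16868403-16870843 and Igll1 next to it at chr16:16860671-16863985, both on the minus strand. Vpreb3 lies at chr10:75943057-75949657 (plus). Rag1 (chr2:101638282-101649501, minus) and Rag2 (chr2:101624718-101632529, plus) are neighbours on opposite strands. Dntt is at chr19:41029275-41059525 (plus), Ebf1 at chr11:44617317-45008091 (plus), Pax5 at chr4:44524757-44710487 (minus), Bach2 at chr4:32238804-32586108 (plus) and Cd79a at chr7:24897381-24902197 (plus). All 10 are annotated as protein-coding. With the strand setting of the counting not given, reads over shared exon bases may have been counted for either gene. Rag1 shares 80 exon bases and Rag2 208 with B230118H07Rik, Vpreb1 shares 108 with Top3b, Bach2 537 with Bach2os, and Pax5 125 with Gm12462 and 636 with 5730488B01Rik. Vpreb1 also has a near-identical copy, Vpreb2, so that reads could have been split between the pair.

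The 250 bases before the RefSeq start site (GRCm38.p6) are printed for the 5 members that hold an E box of the kind bound by E2A-family factors or an octamer, the site of Oct factors, so that the letters can be read. Members with and without such a motif were among those that fell in skull at 24 h: Igll1, Cd79a and Vpreb3 fell, Rag1 and Vpreb1 were not called, and Ebf1, Pax5 and Bach2 fell with no E box or octamer in this window. Sequences run 5′ to 3′ on the gene's strand, and capitals mark the motifs searched on both strands: the E boxes CAGGTG and CAGCTG, the octamer ATTTGCAT, the RUNX motif TGTGGT and the EBF motif CCCNNGGGA.
Rag1 (chr2:101649533-101649782, minus): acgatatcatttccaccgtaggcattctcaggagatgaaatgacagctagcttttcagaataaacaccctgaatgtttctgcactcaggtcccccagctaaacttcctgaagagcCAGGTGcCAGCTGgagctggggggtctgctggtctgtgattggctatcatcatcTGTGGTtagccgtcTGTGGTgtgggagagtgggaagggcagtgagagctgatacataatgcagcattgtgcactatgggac
Igll1 (chr16:16863986-16864235, minus): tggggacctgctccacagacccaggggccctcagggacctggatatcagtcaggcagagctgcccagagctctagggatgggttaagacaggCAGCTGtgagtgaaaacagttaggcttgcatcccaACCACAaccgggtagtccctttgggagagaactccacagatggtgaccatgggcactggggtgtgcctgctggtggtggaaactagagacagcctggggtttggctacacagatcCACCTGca
Vpreb1 (chr16:16869256-16869505, minus): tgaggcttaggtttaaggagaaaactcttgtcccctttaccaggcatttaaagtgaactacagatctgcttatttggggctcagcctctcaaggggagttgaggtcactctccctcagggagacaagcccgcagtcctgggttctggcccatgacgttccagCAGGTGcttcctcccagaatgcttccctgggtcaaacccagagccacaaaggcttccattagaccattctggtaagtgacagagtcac
Cd79a (chr7:24897247-24897496, plus): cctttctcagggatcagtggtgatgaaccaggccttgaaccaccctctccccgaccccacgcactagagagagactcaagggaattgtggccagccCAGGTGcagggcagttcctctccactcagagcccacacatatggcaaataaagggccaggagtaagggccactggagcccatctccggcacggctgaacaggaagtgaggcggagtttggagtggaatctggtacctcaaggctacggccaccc
Vpreb3 (chr10:75948050-75948299, plus): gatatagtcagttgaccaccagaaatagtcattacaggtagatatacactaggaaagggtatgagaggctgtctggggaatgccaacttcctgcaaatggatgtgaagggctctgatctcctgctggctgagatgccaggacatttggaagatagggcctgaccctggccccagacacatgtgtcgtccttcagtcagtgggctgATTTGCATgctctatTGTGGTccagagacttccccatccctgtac

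CAGGTG was found in 4 of 10 members (Rag1, Igll1, Vpreb1 and Cd79a, in Igll1 as its reverse complement), against 17.2% of 32851 RefSeq promoter windows of the same length. CAGCTG was in Rag1 and Igll1, against 13.0% of windows. In Rag1 the 2 E boxes stand next to each other, at 135 to 130 and 128 to 123 bases before the start, and do not overlap. The octamer was in Vpreb3 alone, 45 to 38 bases before the start, against 1.6% of windows. The RUNX motif was in 4 members (Rag1 at 2 places, Vpreb3, Ebf1 and Igll1), against 14% of windows. The EBF motif was in none of the members' windows, against 5.6% of all windows. Ebf1 also had a further RefSeq window (chr11:44619978-44620227), which held none of these motifs. A member was counted if any of its windows matched, while the shares of all promoters are per window. A match is a run of letters, not a measured binding site, and promoters or enhancers outside the RefSeq windows were not searched.

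Libraries held 14209000 to 27305000 counts, and skull libraries 15960000 to 17839000. In untreated libraries the summed level of 8 osteoblast and osteocyte markers was 51370 to 94100 CPM (counts scaled to equal library totals, with TMM factors) in skull and 44.7 to 71.0 CPM in brain. Neuron markers summed to 13.8 to 20.0 CPM in skull and 5525 to 5937 CPM in brain, and 6 meningeal fibroblast markers to 615 to 720 CPM in meninges and 93.7 to 139.7 CPM in skull. Each tissue thus held its own markers. Untreated meninges also held 21400 to 39100 CPM of the bone list and 110.8 to 406.1 CPM of the neutrophil precursor list. List sums here and below are on the scale of each tissue's own fit.

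Untreated skull held more RNA of 9 of the 10 genes than untreated meninges, and more of all 10 than untreated brain. On the scale of a fit of all 27 libraries, the level per kilobase of exon was highest in skull for Cd79a, at 35.0 ± 1.59 CPM per kb (SD, n = 3), then Vpreb3 at 18.8 ± 3.76. Pax5 (8.65 ± 0.941) and Ebf1 (7.90 ± 0.296) lay within their spread of each other. Below them, Bach2 (5.44 ± 0.425), Igll1 (5.05 ± 1.08), Dntt (5.02 ± 1.81) and Vpreb1 (4.90 ± 1.87) could not be ordered beyond their spread. Rag1 (2.25 ± 0.531) was lower and Rag2 (0.332 ± 0.175) the lowest.

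With edgeR's quasi-likelihood test and Benjamini-Hochberg adjustment at 0.05, 10 of 10 members differed between untreated skull and untreated meninges, where 48.2% of all 21500 tested genes did. Of the members 9 were higher in skull, against 21.6% of genes. In meninges alone 7 of the 10 passed the filter on low counts. The rest passed in the fit of all 27 libraries through skull, so their direction was largely set by the filter. Pax5 was at 75.8, 85.3 and 68.7 CPM in skull, 4.94, 7.52 and 8.02 in meninges and 0.766, 0.130 and 0.253 in brain. Cd79a was at 49.1, 53.6 and 50.4 CPM in skull, 3.19, 6.37 and 5.68 in meninges and 0.547, 0.261 and 0.380 in brain. For both genes the 3 tissues did not overlap. The log2 difference of skull from meninges was 3.48 ± 0.48 (SE) for Pax5 (adjusted p = 4.87e-06) and 3.32 ± 0.34 for Cd79a (4.60e-08). Rag1, the catalytic part of the recombinase, was at 17.9, 15.7 and 11.1 CPM in skull, 0.438, 0.599 and 0.278 in meninges and 0.182, 0.0651 and 0.443 in brain, so that the latter pair overlapped.

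Against untreated brain 10 of 10 members were higher in skull, where 75.6% of genes differed and 37.3% were higher. In brain alone 3 of the 10 passed the filter on low counts. The others entered the fit of all 27 libraries through their level elsewhere, so for them this direction too was largely set by the filter. Several members were at or near 0 in the other tissues. Igll1 had 496 counts over the 3 control skull libraries and 0 in brain, a level at least 190.4-fold higher taking the 3-count floor for all brain controls together. Rag2 had 52 counts in skull and 0 in both other tissues, at least 17.1-fold higher than meninges and at least 20.0-fold higher than brain. Vpreb1 had 270 counts in skull and 1 in brain, a ratio of 310.9 (95% exact interval 55.3 to 12330). Such intervals and floors cover counting error only.

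Ebf1 and Bach2 did not follow that order. Ebf1 was at 77.1, 79.9 and 74.1 CPM in untreated skull and at 107.1, 99.0 and 96.1 in untreated meninges, with no overlap. Its log2 difference of skull from meninges was -0.39 ± 0.15 (adjusted p = 0.0427), and it lost the call with RLE scaling (0.0533), without the filter on low counts (0.0959) and when any 1 of the 6 libraries was left out (0.0521 to 0.115). A list of 7 mural and stromal markers goes with Ebf1 outside the B lineage. On each tissue's own scale, not that of all 27 libraries, it summed to 1357 to 1659 CPM in meninges, 775.9 to 908.9 CPM in skull and 238.3 to 267.5 CPM in brain. The part of such cells in the level of Ebf1 was not tested. Bach2 was at 52.2, 51.1 and 58.9 CPM in skull, 10.9, 12.2 and 11.6 in meninges and 19.5, 18.7 and 15.9 in brain, and was the only member lower in meninges than in brain by the test, at -0.64 ± 0.17 (adjusted p = 0.00178). Between these 2 tissues 7 of 10 members were called, 6 of them higher in meninges, where 70.5% of genes differed and 36.8% were higher in meninges.

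**Figure D1:**
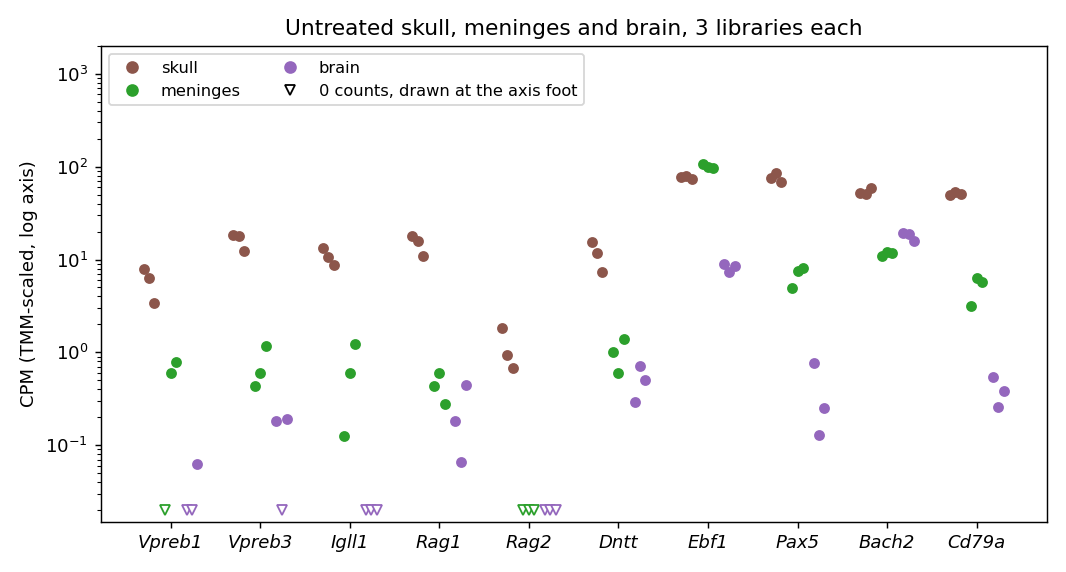
Levels of the 10 genes in untreated skull, meninges and brain (3 libraries each), as TMM-scaled CPM on a log axis; each point is 1 library, and open triangles at the foot mark libraries with 0 counts. Skull points lie above the others for all genes but Ebf1, which is higher in meninges, and Rag2 has no count in untreated meninges or brain.

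At 24 h after UVB the skull held less RNA of 6 of the 10 genes than control skull: Vpreb3, Igll1, Ebf1, Pax5, Bach2 and Cd79a. The median log2 change over the 10 members was -1.23, against -0.00 over all genes tested. Of 17426 genes tested in skull, 20.9% differed at 24 h and 10.4% were lower. None of the 10 rose. These 6 are also the members for which every 24 h library lay below every control library, which held for 18.1% of all tested genes. In bulk RNA, fewer cells of a type and less RNA per cell cannot be told apart. Both comparisons with control use the same 3 control libraries.

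**Figure D2:**
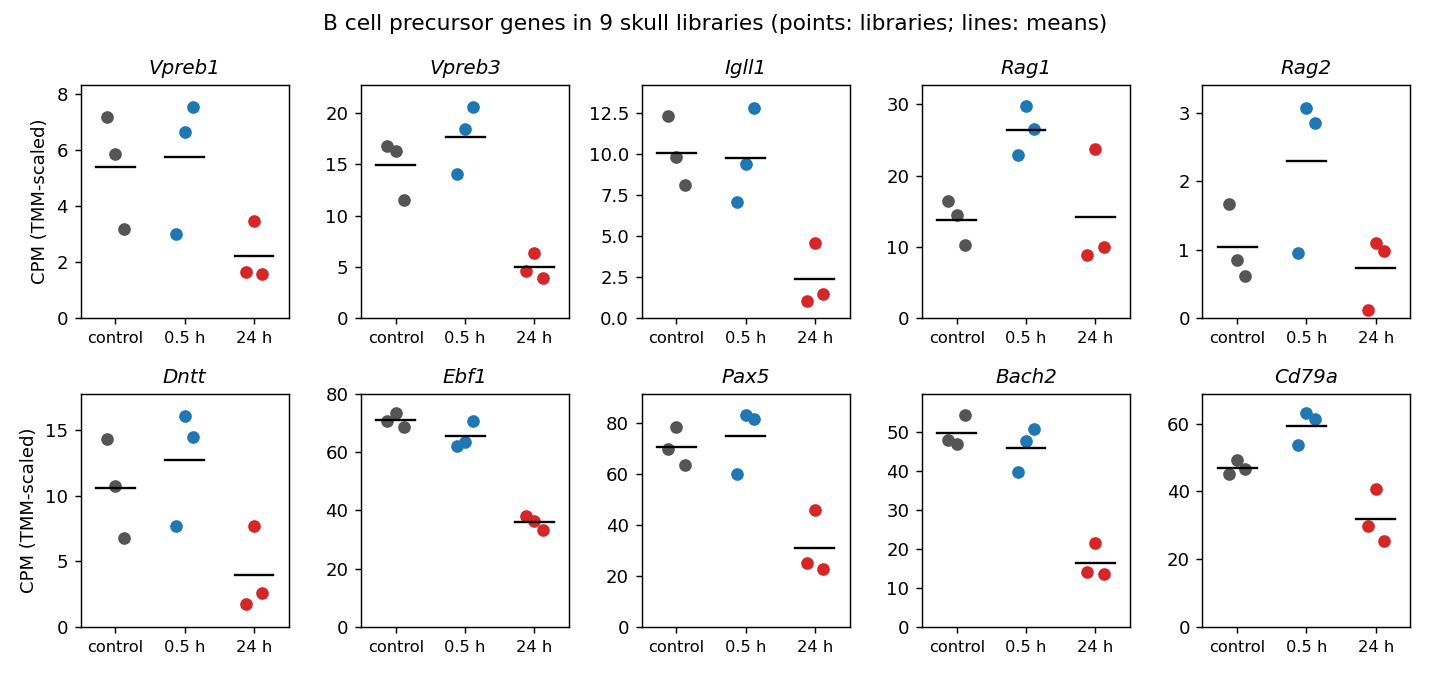
Level of each gene in the 9 skull libraries, as CPM on TMM-scaled totals; points are libraries in control, 0.5 h and 24 h groups, lines are group means, and each panel has its own axis from 0. The 24 h points lie below the control points for Vpreb3, Igll1, Ebf1, Pax5, Bach2 and Cd79a, while for Rag1 the 0.5 h points lie above the control points and 1 of the 24 h points is high.

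Vpreb3 was at 16.8, 16.3 and 11.5 CPM in control skull, 14.1, 18.4 and 20.6 at 0.5 h and 4.64, 6.36 and 3.90 at 24 h. The 24 h libraries did not overlap with either earlier group. The log2 change from control was -1.59 ± 0.22 at 24 h (adjusted p = 0.000544). Igll1, the lambda5 part of the surrogate light chain, was at 12.3, 9.79 and 8.08 CPM in control, 7.08, 9.38 and 12.8 at 0.5 h and 1.02, 4.59 and 1.46 at 24 h. Again all 24 h libraries were the lowest, with the second well above the others. Its change at 24 h was the largest of the 10, at -2.10 ± 0.48 (0.0159), and the call was lost without the filter on low counts (0.0648) and without the third 24 h library (0.0580).

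Vpreb1, the other part of the surrogate light chain, was at 7.19, 5.87 and 3.18 CPM in control, 2.999, 6.66 and 7.56 at 0.5 h and 1.64, 3.49 and 1.59 at 24 h. The second 24 h library lay above the lowest control. Its log2 value of -1.28 ± 0.44 missed the threshold (adjusted p = 0.0622), and passed it with limma-voom (0.0488), with DESeq2 (0.0169), without the third control (0.0290) and without the second 24 h library (0.0275).

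Rag1 was not called at 24 h. It was at 16.5, 14.5 and 10.2 CPM in control skull, 22.9, 29.8 and 26.6 at 0.5 h and 8.94, 23.7 and 10 at 24 h. The 0.5 h libraries all lay above the controls, while at 24 h 1 library was above every control and the other 2 below. The log2 value at 24 h was 0.05 ± 0.36 (adjusted p = 0.949), with a negative sign under limma-voom (-0.25), with the replicate number as a block (-0.04), without the third control (-0.12) and without the second 24 h library (-0.53, 0.0969).

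Its partner Rag2, whose protein reads a histone mark and is needed for cutting, was much scarcer, at 1.66, 0.854 and 0.622 CPM in control, 0.960, 3.07 and 2.85 at 0.5 h and 0.113, 1.10 and 0.976 at 24 h, or 2 to 54 counts a library. The groups overlapped, and the log2 value at 24 h was -0.54 ± 0.69 (0.634). Dntt was at 14.3, 10.7 and 6.77 CPM in control, 7.68, 16.0 and 14.4 at 0.5 h and 1.75, 7.65 and 2.56 at 24 h. The second 24 h library alone overlapped with the controls. The log2 value of -1.42 ± 0.56 did not pass the test (0.118) and did so without that library, at -2.30 (0.00799).

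Of the transcription factors, Ebf1 had the tightest groups, at 70.8, 73.5 and 68.6 CPM in control, 62.3, 63.5 and 70.8 at 0.5 h and 38.0, 36.5 and 33.4 at 24 h. It fell by 0.98 ± 0.09 on the log2 scale (adjusted p = 2.68e-05). Bach2 was at 47.9, 47.0 and 54.5 CPM in control, 39.8, 47.7 and 50.8 at 0.5 h and 14.03, 21.6 and 13.6 at 24 h, a fall of 1.60 ± 0.17 (0.000151). For both genes no 24 h library came near the lowest library of the earlier groups. The calls of Ebf1, Bach2 and Vpreb3 held under each of the 14 alternatives run, with adjusted p of at most 0.000293, 0.00126 and 0.0187.

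Pax5, which holds B cells to their lineage, was at 69.7, 78.5 and 63.5 CPM in control, 59.9, 83.3 and 81.6 at 0.5 h and 24.9, 45.9 and 22.6 at 24 h. The second 24 h library was again the highest of its group. The log2 change of -1.18 ± 0.27 (adjusted p = 0.0181) missed the threshold without the filter (0.0571), in the fit of all 27 libraries (0.0637) and without any 1 control or the first 24 h library (0.0502 to 0.0628). Cd79a was at 45.1, 49.3 and 46.6 CPM in control, 53.6, 63.0 and 61.3 at 0.5 h and 29.7, 40.6 and 25.3 at 24 h. It had the smallest of the called falls, at -0.56 ± 0.15 (0.0186), which missed the threshold in the fit of all 27 libraries (0.219) and without the second control (0.0563), the first 24 h library (0.0777) or the third (0.0630).

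**Figure D3:**
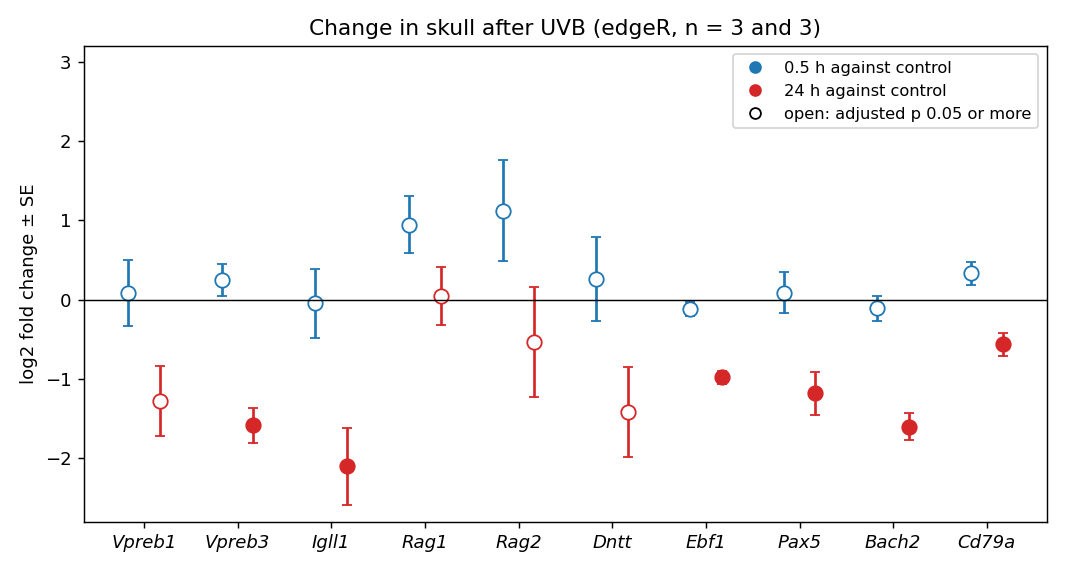
Log2 fold change of each gene in skull at 0.5 h and at 24 h against control, with SE (edgeR, 3 libraries against 3); filled points have an adjusted p under 0.05. The 6 filled points are all at 24 h and below 0, Rag1 at 24 h sits at 0.05, and Rag1 and Rag2 at 0.5 h are the highest open points.

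At 0.5 h none of the 10 members was called in skull by edgeR, where 4.9% of genes were. At an unadjusted p under 0.05 there were 2, DESeq2 called 1 and limma-voom 0. Rag1 had a log2 value of 0.94 ± 0.36 (adjusted p = 0.170). DESeq2 (0.0331) and edgeR on the 2 groups alone (0.0290) put it past the threshold as higher. Cd79a, at 0.33 ± 0.14 (0.196), was the other member whose 0.5 h libraries all lay above the controls, which held for 13.4% of tested genes. Rag2 had 1.12 ± 0.64 (0.331), with the first 0.5 h library inside the control range. The 7 other members had log2 values from -0.12 to 0.26 and overlapping groups.

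From 0.5 h to 24 h in skull the same 6 genes were called lower, where 16.1% of genes differed and 7.74% were lower. Bach2 fell by 1.49 ± 0.17 (adjusted p = 0.000359), Vpreb3 by 1.83 ± 0.22 (0.000359), Ebf1 by 0.87 ± 0.09 (0.000114) and Cd79a by 0.90 ± 0.15 (0.00226). Of 7 mural and stromal markers, which share Ebf1, 3 were lower in this comparison (median -0.40), with sums of 889.1 to 920.7 CPM at 0.5 h and 741.1 to 817.1 at 24 h, and their part in the fall of Ebf1 was not tested. Igll1 had -2.06 ± 0.48 (0.0208) and Pax5 -1.27 ± 0.27 (0.0169). Both lost the call without the filter (0.0813 and 0.0529), on the 2 groups alone (0.0532 and 0.0623) and without the second 0.5 h library, the third 0.5 h library or the first 24 h library (at most 0.0625). Igll1 lost it without the third 24 h library too (0.0793), and Pax5 in the fit of all 27 libraries (0.0557). Rag1 had -0.90 ± 0.36 (0.131) and passed with limma-voom (0.0198), DESeq2 (0.0260) and without the second 24 h library (-1.48, 0.000985). Dntt, whose 2 groups did not overlap as in 18% of genes with 24 h lower, had -1.68 ± 0.56 (0.0840), and 0.00542 without the second 24 h library.

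Rag1 was set against each other member within the same library, a comparison chosen after the values were seen and given without a test. Per count of Vpreb3 there were 0.979, 0.885 and 0.886 counts of Rag1 in control skull, 1.63, 1.62 and 1.29 at 0.5 h and 1.93, 3.72 and 2.56 at 24 h. Per count of Igll1 there were 1.34, 1.48 and 1.26 in control, 3.24, 3.18 and 2.08 at 0.5 h and 8.78, 5.16 and 6.83 at 24 h. Per count of Dntt, the enzyme that works beside the recombinase, there were 1.15, 1.35 and 1.51, then 2.98, 1.86 and 1.84, then 5.10, 3.10 and 3.91. These 3 ratios were higher at 0.5 h than in control and higher still at 24 h in every library. The ratio to Bach2 was so too, at 0.344, 0.307 and 0.188, then 0.575, 0.625 and 0.523, then 0.637, 1.10 and 0.735. Over the 9 other members, all 0.5 h ratios lay above control for 8, all 24 h ratios above control for 7 and all 24 h ratios above 0.5 h for 4. The share of all genes with such ratios was not computed, so these counts are a description. All 9 ratios have Rag1 on top, so they are not separate comparisons and repeat its level and the falls given above. The second 24 h library, where Rag1 itself was high, had the highest of the 24 h ratios to Vpreb3 and Bach2 and the lowest to Igll1 and Dntt.

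Against Pax5 the Rag1 ratio was 0.161 to 0.236 in control, 0.326 to 0.383 at 0.5 h and 0.358 to 0.516 at 24 h, and against Vpreb1 it was 2.29 to 3.22, 3.52 to 7.64 and 5.45 to 6.79. For both, the 2 later groups overlapped with each other and not with control. The ratio to Cd79a was 0.219 to 0.365 in control and 0.301 to 0.583 at 24 h, with overlap. The ratio to Ebf1 was 0.149 to 0.233 in control, 0.368 to 0.470 at 0.5 h and 0.235, 0.649 and 0.299 at 24 h, where the lowest library barely cleared the controls. Rag2 showed no order, with 9.89, 16.9 and 16.4 counts of Rag1 per count in control, 23.9, 9.73 and 9.31 at 0.5 h and 79.0, 21.5 and 10.2 at 24 h, the first of the last resting on 2 counts of Rag2. Developing T cells make Rag1 too. Of 7 thymocyte markers 5 were tested in skull at 24 h and 2 fell (median -0.52), where 10.4% of all skull genes were lower. These were Tox at -1.78 ± 0.48 (adjusted p = 0.0206) and Cd8b1, also in the T cell list given below, at -1.41 ± 0.44 (0.0388). Ptcra, the pre-T receptor chain, was at 0 in all 24 h libraries. Other cells share the thymocyte list, which summed to 515.1 to 591.5 CPM in control brain. In skull it summed to 36.5 to 48.6 CPM in control, 36.2 to 41.2 at 0.5 h and 31.9 to 37.8 at 24 h.

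**Figure D4:**
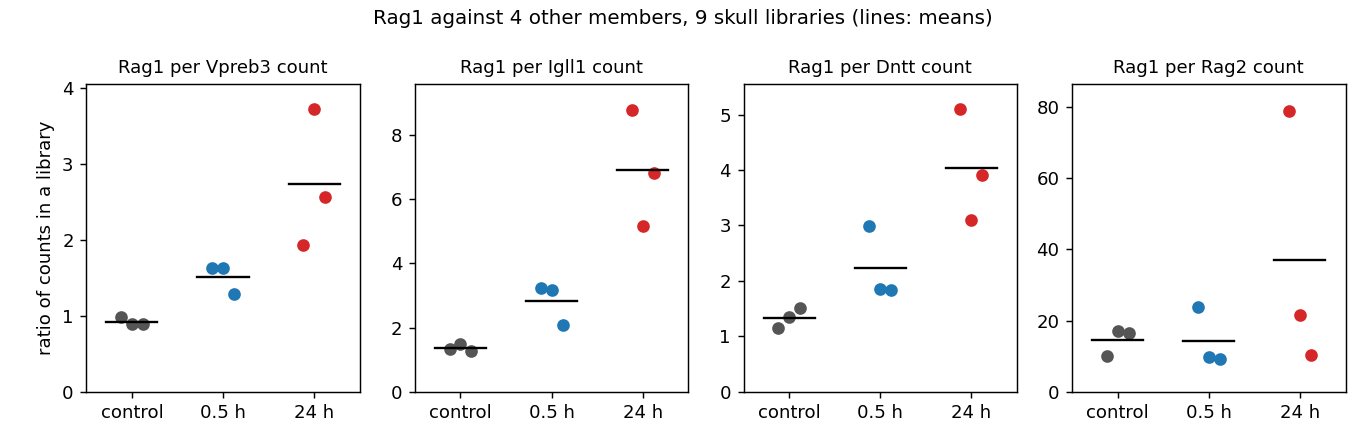
Counts of Rag1 per count of Vpreb3, Igll1, Dntt and Rag2 within each of 9 skull libraries (points; lines are group means; each panel has its own axis from 0). The first 3 ratios stand in the order control, 0.5 h, 24 h without overlap, while the ratio to Rag2 overlaps between groups.

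The second 24 h skull library stood apart. The 10 members summed to 302.3, 306.3 and 273.7 CPM in control, 271.2, 341.0 and 349.3 at 0.5 h and 124.8, 191.5 and 115.4 at 24 h. It was also the highest 24 h library for erythroid markers (3246, 4740 and 3073 CPM, against 5456 to 6062 in control) and cell cycle markers (890.1, 1219 and 794.1, against 734.1 to 1035). Without it 8 members were called lower at 24 h, Vpreb1 and Dntt joining the 6.

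Other marrow and blood lineages are given beside the members, since their levels moved at 24 h as well. The share of all skull genes that were lower at 24 h is again 10.4%. Erythroid genes fell in 4 of 9 at 24 h (median log2 change -0.65), and 8 of 9 were lower at 24 h than at 0.5 h (median -1.10), where 7.74% of genes were. T cell genes fell in 4 of 10 (median -1.12), with Cd4 at -1.13 ± 0.20 (adjusted p = 0.00208) and Trbc2 at -1.78 ± 0.54 (0.0343). The T cell list summed to 29.6 to 52.0 CPM in control and 14.1 to 24.9 at 24 h. Of pan-leukocyte genes 1 of 7 fell (Laptm5, -0.47 ± 0.13, 0.0226), with a median of -0.37. Camp, an antimicrobial peptide gene at -0.93 ± 0.27 (0.0458), was the 1 of 8 neutrophil precursor genes that fell. These last 2 shares are near that of all genes. Of 5 plasma cell genes tested, 2 were higher and none lower at 24 h, where 20.9% of all skull genes differed. These were Sdc1, also made by stromal and epithelial cells, at 0.70 ± 0.09 (0.000437) and Prdm1 at 0.58 ± 0.15 (0.0183). The median over the 5 was 0.02, so the rise was not shared by the list. That list summed to 310.1 to 334.8 CPM in control, 293.3 to 324.7 at 0.5 h and 340.7 to 381.2 at 24 h, above all controls. The parts of these lineages in the fall of the members were not tested.

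The list of mature B cell genes moved otherwise. It leaves out Cd79a and its partner Cd79b, which also serve the mature B cell receptor and fell at 24 h. Of 9 genes tested, 3 rose at 0.5 h, where 4.9% of all skull genes differed. These were Ms4a1 (CD20) by 0.85 ± 0.19 (adjusted p = 0.0298), Ighd (the IgD constant region) by 0.81 ± 0.17 (0.0213) and Fcmr (a receptor for IgM) by 1.03 ± 0.25 (0.0342). At 24 h 1 of the 9 differed, where 20.9% of all skull genes did. It was Cd83, lower by -0.64 ± 0.16 (0.0153), while Ms4a1 had 0.50 ± 0.19 (0.0908). The list summed to 75.2 to 90.8 CPM in control, 108.7 to 130.5 at 0.5 h and 72.6 to 106.1 at 24 h. Per 1000 CPM of mature B cell genes, the members summed to 3375 to 3829 CPM in control, 2494 to 2779 at 0.5 h and 1513 to 1804 at 24 h, with no overlap of the 3 groups.

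Relative to the T cell list the members' sum was not lower at 24 h. Per 1000 CPM of T cell genes, a list set beside the members after seeing the data, it was 7647, 5886 and 9257 CPM in control, 8312, 11360 and 9307 at 0.5 h and 8824, 7688 and 6435 at 24 h, and the 24 h libraries lay inside the control range. The members and the T cell list thus had lower sums together. Relative to other lists the sum was lower. Per 1000 CPM of pan-leukocyte genes it was 172.9, 161.5 and 226.4 CPM in control, 181.3, 237.6 and 186.6 at 0.5 h and 114.6, 136.3 and 86.2 at 24 h. Per 1000 CPM of erythroid genes it was 47.6 to 56.2 in control and 37.6 to 40.4 at 24 h, and per 1000 CPM of cell cycle genes 296.1 to 372.8 and 140.2 to 157.1. In these 3 the 24 h libraries lay below all controls. Relative to neutrophil precursor genes the distance was narrow, at 49.4 to 88.5 in control and 30.2 to 48.4 at 24 h. With Ebf1 left out of the sum these groups overlapped, at 37.8 to 66.3 in control and 21.4 to 38.3 at 24 h.

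**Figure D5:**
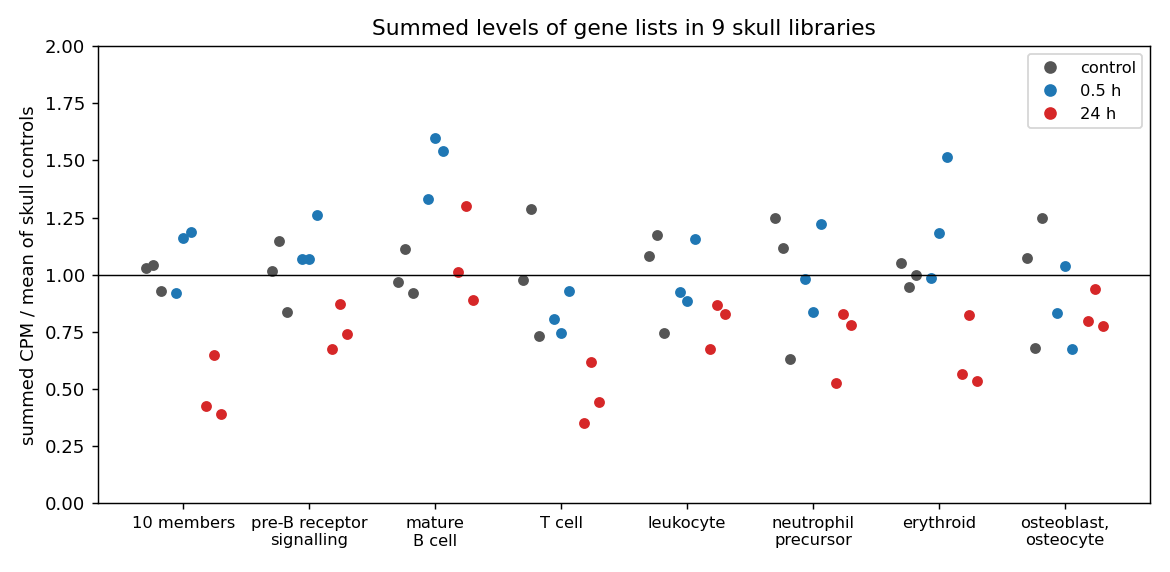
Summed CPM of the 10 members and of 7 other gene lists in 9 skull libraries, each divided by the mean of its 3 control libraries (line at 1); points are libraries. All 24 h points of the members, the T cell list and the erythroid list lie below their controls, and all 0.5 h points of the mature B cell list lie above theirs.

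The other genes of B cell development were looked at in lists chosen for their role. Of all genes tested in skull, 20.9% differed at 24 h and 10.4% were lower. Of 14 genes of the pre-B receptor and its signalling, 5 fell at 24 h in skull and none rose (median -0.54): Cd72, an inhibitory co-receptor, at -0.59 ± 0.13 (adjusted p = 0.00741), Ighm, the mu heavy chain, at -0.71 ± 0.15 (0.00808), the adaptor Blnk at -0.86 ± 0.25 (0.0316), Cd79b, the partner of Cd79a, at -0.76 ± 0.22 (0.0329), and the kinase Syk at -0.49 ± 0.15 (0.0413). The count was 3 without the filter and in the fit of all 27 libraries, 2 without the first or second control or without the first 24 h library or the third, and 8 without the second 24 h library. Vpreb2 had 0.01 ± 1.09 at 0.5 h and -1.32 ± 1.17 at 24 h (0.474).

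Of 18 early B lineage transcription factors 6 fell at 24 h and none rose (median -0.52), where 10.4% of all skull genes were lower. Sox4, a survival factor of pro-B cells, had -0.83 ± 0.09 (adjusted p = 0.000145), Irf4, which acts as pre-B cells leave the cycle, -1.79 ± 0.29 (0.00232), Foxo1, which drives Rag transcription, -0.68 ± 0.14 (0.00512), and Pou2af1, the B cell coactivator of Oct factors, -1.13 ± 0.24 (0.0101). Lef1 (-1.17 ± 0.34, 0.0284) and Bcl6 (-0.45 ± 0.14, 0.0337) are the remaining ones. E2A itself, Tcf3, had -0.19 ± 0.10 (0.198). The list summed to 1346 to 1382 CPM in control skull and 1132 to 1165 in control meninges, each on its own tissue's scale. The members summed to 273.7 to 306.3 and 134.0 to 139.4 CPM there. Foxo1 and Sox4 fell at 24 h in meninges too, and the part of cells outside the B lineage in these falls was not tested.

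Among 13 genes that cut and join DNA with the recombinase, 1 rose and 2 fell at 24 h (median 0.06), a share near the 20.9% of all skull genes that differed. Atm, the kinase that answers DNA breaks, had 0.50 ± 0.16 (adjusted p = 0.0395), Hmgb1, a bending protein of the cutting complex, -0.26 ± 0.07 (0.0228) and its relative Hmgb2 -0.59 ± 0.17 (0.0350). No gene of the list was called without the first control, the first 24 h library or the third, and 1 without the second 24 h library or the filter. Of 17 receptors and interleukin 7 signalling genes of pro-B and pre-B cells, Ly6d, a surface mark of the B path, fell by 0.67 ± 0.15 (0.00866) and Mme, also made by bone cells, rose by 0.32 ± 0.10 (0.0395), a share below the 20.9% of all genes. That count of 2 was 4 without the filter, with limma-voom or with DESeq2, and 1 in the fit of all 27 libraries, on the 2 groups alone, without the first control and without the first 24 h library. Il7r, the receptor itself, had -0.49 ± 0.18 (0.0753).

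Of 10 niche genes that feed B precursors 1 fell at 24 h, a share near the 10.4% of all skull genes that were lower. It was Foxc1, a factor of the marrow's Cxcl12-rich stroma, which fell by 0.92 ± 0.13 (adjusted p = 0.000753). The cytokine Il7 had 0.74 ± 0.37 (0.172) and Cxcl12 -0.14 ± 0.19 (0.660). At 0.5 h edgeR called 0 genes in these 5 lists, with 1 to 4 a list at an unadjusted p under 0.05. DESeq2 called 2 of the transcription factors and 1 of the receptors then, and limma-voom 1 of the transcription factors and 1 of the pre-B receptor genes.

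The genes most like the members across the 9 skull libraries were found by Pearson correlation of log2 CPM with the members' mean pattern, which is a description of libraries that share their groups. Among the 10 highest were Mkrn1 (r = 0.99), Ube2o, Hbb-bs, Stard10, Prxl2a and Niban3 (0.98), and Epor, Tspan33 and Irag2 (0.97). Hbb-bs is an adult beta globin and Epor the erythropoietin receptor. Members' own r with the mean of the other members ran from 0.71 for Rag1 and 0.74 for Rag2 to 0.97 for Igll1 and Pax5 and 0.98 for Dntt.

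In the meninges 7 of the 10 genes passed the filter on low counts. Vpreb1, Igll1 and Rag2 did not, with at most 14, 22 and 3 counts in any library. At 24 h Ebf1 and Bach2 were lower than in control meninges, 2 of 7, where 8.42% of 18542 genes differed and 4.45% were lower. Ebf1 was at 114.3, 107.8 and 102.0 CPM in control, 97.9, 108.5 and 98.7 at 0.5 h and 72.5, 85.1 and 78.2 at 24 h, a fall of 0.46 ± 0.08 (adjusted p = 0.00813). Bach2 was at 11.7, 13.2 and 12.3 CPM in control, 9.10, 8.87 and 11.8 at 0.5 h and 7.30, 5.45 and 7.36 at 24 h, a fall of 0.89 ± 0.18 (0.0150). For both no 24 h library reached the earlier groups. In the fit of all 27 libraries Ebf1 had an adjusted p of 0.0513, and Bach2 had 0.0532 without the second control and 0.0585 without the second 24 h library. Mural and stromal markers, which share Ebf1, summed to 1357 to 1659 CPM in control meninges and 1367 to 1574 CPM at 24 h, with a median log2 change of -0.17.

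Vpreb3 had 7, 11 and 21 counts in the control meninges, 27, 11 and 3 at 0.5 h and 4, 5 and 1 at 24 h. Its 24 h libraries lay below the controls, but the log2 value of -1.93 ± 0.85 did not pass the test (adjusted p = 0.195). Dntt had 16, 11 and 25 counts in control and 10, 11 and 0 at 24 h, at -1.33 ± 0.88 (0.400). The lowest control and the highest 24 h library both held 11 counts, so these groups were kept from overlapping by the scaling alone. That pattern of 24 h below control held for 13.1% of genes in meninges. Pax5 had -0.84 ± 0.44 (0.285), Rag1 -0.72 ± 0.85 (0.665) and Cd79a -0.01 ± 0.33 (0.988). Neutrophil precursor markers, genes of marrow, summed to 110.8 to 406.1 CPM in control meninges and to 114.9 to 135.7 CPM at 24 h, and their part in these low counts was not tested.

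At 0.5 h 0 of 7 members were called in meninges by edgeR, DESeq2 or limma-voom, with none at an unadjusted p under 0.05, where 0.874% of genes were called. From 0.5 h to 24 h Ebf1 alone was lower, by 0.37 ± 0.08 (adjusted p = 0.0430), where 2.34% of genes differed and 1.27% were lower. That call was lost without the robust option, in the fit of all 27 libraries, on the 2 groups alone, with the replicate block and without any 1 of the 6 libraries (0.0518 to 0.217). Of the 18 early transcription factors in meninges 3 fell at 24 h and none rose, against 4.45% of genes that were lower: Foxo1 (-0.78 ± 0.09, 0.000960), Sox4 (-0.51 ± 0.09, 0.00712) and Erg (-0.38 ± 0.10, 0.0458). Of the pre-B receptor list 0 of 13 tested genes were called at 24 h in meninges, and of the receptor and interleukin 7 list 0 of 17. Of 13 cutting and joining genes 3 were called and of 10 niche genes 2, against 8.42% of genes. The DNA ligase Lig4 (1.21 ± 0.18, 0.00288) and the end-binding protein Xrcc6 (0.50 ± 0.11, 0.0172) rose while Hmgb2 fell by 0.92 ± 0.18 (0.0140), and the niche factors Cxcl12 (0.56 ± 0.09, 0.00523) and Kitl (0.30 ± 0.08, 0.0438) rose.

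In the brain 3 members passed the filter, Ebf1, Pax5 and Bach2. EdgeR called none of them at 0.5 h, where 0.0055% of genes were called, at 24 h (2.62%) or from 0.5 h to 24 h (0.22%). DESeq2 and limma-voom called none either, and at an unadjusted p under 0.05 there was 1, 1 and 0. Bach2 was at 19.6, 18.8 and 16.0 CPM in control, 14.5, 14.5 and 12.3 at 0.5 h and 19.2, 14.3 and 17.3 at 24 h. Every 0.5 h library lay below the controls, as for 5.54% of genes, with a log2 value of -0.40 ± 0.14 (adjusted p = 0.877). Ebf1 was at 9, 7.48 and 8.66 CPM in control and 4.46, 6.32 and 9.22 at 24 h (-0.33 ± 0.24, 0.505). Pax5 had 21, 2 and 4 counts in control brain, 5, 5 and 22 at 0.5 h and 9, 11 and 46 at 24 h, so that 1 library led each group. Its log2 value at 24 h was 1.83 ± 0.80 (0.239), and 0.0473 without the filter.

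Whether the change at 24 h differed between tissues was tested as an interaction in the fit of all 27 libraries. In brain alone 3 of the 10 members passed the filter on low counts, and in meninges alone 7 did. The others had low counts there and mostly large SEs, such as 9.42 for Vpreb3 and 1667.5 for Rag2 in skull minus brain. A missing call for these does not show an equal change. Bach2 fell more in skull than in brain, by -1.51 ± 0.24 on the log2 scale (adjusted p = 0.000390), the only 1 of 10 members called, where 6.71% of 21500 genes were and 3.39% had the lower direction. Pax5 had -2.93 ± 0.90 (0.0568) and Ebf1 -0.65 ± 0.24 (0.104). Pax5 passed without the robust option (0.0402), with DESeq2 (0.0107), without the first 24 h brain library (0.0452) or without the second 24 h skull library (0.0343). Ebf1 passed with DESeq2 (0.0399) and without the first 24 h brain library (0.0194).

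Between skull and meninges edgeR called none of the 10 as changed differently at 24 h, where 0.633% of genes were, and DESeq2 and limma-voom called none. At an unadjusted p under 0.05 there were 2, Bach2 at -0.69 ± 0.24 (adjusted p = 0.246) and Ebf1 at -0.51 ± 0.22 (0.379). Bach2 passed without the second 24 h skull library, at -0.94 (0.0471). Vpreb3 had 0.36 ± 0.84 (0.955) and Cd79a -0.53 ± 0.46 (0.744). The 0.5 h change was called in none of the 10 for either pair of tissues, by any of the 3 tools and also at an unadjusted p under 0.05, where 0.0093% (skull minus meninges) and 0.209% (skull minus brain) of genes were called. Low counts again limited this test, with an SE in skull minus brain of 91.9 for Igll1 and 3366.3 for Rag2.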

How the data were processed

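The deposited values are raw counts by gene symbol in 27 libraries, whose totals differ. HISAT2 2.1.0 and mm10 are listed in the submitters' processing notes. How reads were counted (tool, gene models, strand) is not given in the sources used here. The 10 members and all gene lists were chosen with earlier results of these data known.

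In R 4.3.3, edgeR 4.0.16 was run with TMM scaling, filterByExpr (minimum count 10, minimum total 15) and the robust quasi-likelihood F test. Fits used the 9 libraries of a tissue, while untreated tissues and interactions used all 27. P-values were adjusted over all tested genes, and called means an adjusted p under 0.05. SE was taken as |log2 fold change| divided by sqrt(F). CPM uses TMM-scaled totals and SD is over 3 libraries. All members were named. Of each other B lineage list, up to 4 genes called in skull with the smallest p were named, and the rest were named after their values were seen. Similar genes needed a mean of 1 CPM and log2 CPM used a prior count of 2. Of the 10 similar genes, 1 is not reported here. Intervals are 95% Clopper-Pearson and the floor is 3 counts. Scripts were tested on simulated data. Alternatives were RLE scaling, no filter, no robust option, limma-voom (limma 3.58.1) with quality weights, DESeq2 1.42.0, a replicate block, all 27 libraries or the 2 groups alone, and leaving out each library. The alternatives for the lists were chosen after seeing the data.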

Additional observations from a re-analysis of the deposited data

Results flagged for a closer look

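The change of Bach2 at 24 h differed between skull and brain by a test of the difference itself. It was -1.51 ± 0.24 lower on the log2 scale in skull (edgeR, adjusted p = 0.000390), from a fall of 1.60 ± 0.17 in skull and -0.10 ± 0.14 in brain (0.759). All 3 skull libraries at 24 h lay below all 3 control libraries, while in brain the groups overlapped. Over the 18 alternatives run the difference ranged from -1.76 to -1.38 and the adjusted p from 1.82e-07 to 0.00199.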

How the results depend on the processing

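Of 1245 comparisons of a member's value with an alternative, 1148 kept their direction and their side of the threshold, 46 lost the call, 26 gained it and 25 turned sign; of 196 for the genes named from other lists, 155 kept both and 41 lost the call. The cause of these shifts was not tested. The count of members called in skull at 0.5 h, 0 in the report, was 1 with DESeq2 and 1 on the 2 groups alone, and 0 without any 1 library. In skull at 24 h and from 0.5 h to 24 h, 6 in the report, leaving out a library gave 4 to 8 and 4 to 9. In meninges at 24 h, 2 in the report, it was 1 in the fit of all 27 libraries and 1 to 2 with a library left out. From 0.5 h to 24 h in meninges, 1 in the report, it was 0 without the robust option, in the fit of all 27 libraries, on the 2 groups alone, with the replicate block and with any library left out. In brain at 24 h, 0 in the report, it was 2 without the filter. For the 24 h change in skull against brain, 1 in the report, it was 2 without the robust option, 3 with DESeq2 and 1 to 3 with a library left out; against meninges, 0 in the report, it was 0 to 1 with a library left out.

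Signs turned only for values that missed the threshold. Vpreb1 at 0.5 h in skull was -0.11 with limma-voom and -0.17 to 0.40 with a library left out, and Igll1 -0.29 to 0.15. Rag1 at 24 h in skull was -0.25 with limma-voom, -0.041 with the replicate block and -0.53 to 0.30 with a library left out. In meninges Vpreb3 at 0.5 h was -0.22 with the replicate block and -0.82 to 0.55 with a library left out, Cd79a at 24 h -0.26 to 0.21, and from 0.5 h to 24 h Dntt -1.07 to 0.29 and Pax5 -0.69 to 0.11. In brain Ebf1 at 0.5 h was -0.083 to 0.28, Pax5 at 0.5 h -0.33 to 1.85, Bach2 at 24 h -0.20 to 0.014 and Pax5 from 0.5 h to 24 h -0.066 to 2.18. The 24 h difference of skull and meninges for Vpreb3 was -0.13 to 0.76.

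The replicate numbers were checked for pairing. Same-numbered libraries deviated with correlations of -0.14 to 0.07 over 9 pairs in skull and -0.05 to 0.09 over 27 pairs across tissues. No pairing was seen, but noise that differs by tissue could hide one, so shared animals are not excluded. With the number as a replicate block the counts of members called in skull were 0, 6 and 6, as in the report. Low counts limit Rag2 everywhere, and Vpreb1, Vpreb3, Igll1, Rag1 and Dntt in meninges and brain.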
